A study of Mus musculus with 32 samples.

Results

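The X-linked genes described here are those expressed in wild-type (WT) XEN cells of the mouse, with the level on the inactive X chromosome (Xi) set against the level on the active X chromosome (Xa) in the same cells. XEN cells are stem cell lines of the extraembryonic endoderm, the lineage that forms the yolk sac endoderm. A gene was included when its Xa and Xi values together reached 1 FPKM (fragments scaled by the gene's length and the library's total). This left 269 of the 953 X-linked genes listed, while 389 genes were above 0 on either allele. The whole study holds 32 RNA samples in 12 groups, and 3 of the samples are WT. The cells are labelled with the strain 129S1/SvImj X JF1/Ms, and sequence differences between these strains tell the parental X chromosomes apart. WT is the group labelled with none of the changes of the other groups, which are XistpA, deletions named XRR, and degron lines of Rad21 and Ctcf. 4 of those groups serve as side columns below, namely XRRb_XaKO and XRRc_XaKO, whose names place the deletion on Xa (2 samples each), the Rad21 degron line with DMSO (4 samples, from 2 clones), and the Ctcf degron line with DMSO for 48 h (2 samples).

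In female mammals 1 X chromosome of each cell is silenced early in development. The long noncoding RNA Xist spreads from the silenced chromosome's own X inactivation centre and recruits repressive complexes, and Tsix is transcribed across Xist from the opposite strand. A minority of genes, called escape genes, keep being transcribed from Xi, usually at a lower level than from Xa. In extraembryonic lineages of the mouse, inactivation is imprinted and falls on the paternal X, whereas it is random in the embryo proper.

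The authors merged the 3 WT samples into 1 FPKM value per gene and allele. Values are therefore given without error or test, and the number of reads behind each is unknown. Where shares are said to differ, the spread between samples could not be measured. A value of 0 may be a level too low to detect or a failed estimate, so such genes are called listed at 0. The defining transcription factors of XEN cells are autosomal and were not analysed here. Of 16 X-linked markers of other cell types, which were Plac1 and Esx1 for trophoblast and others for pluripotent, germ, lymphoid, neural and erythroid cells, only Plac1 reached 1 FPKM, at 2.95 on Xa. The other 15 lay between 0 and 0.183 FPKM on either allele.

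By these allele values, the most expressed X-linked genes of WT cells encode ribosomal proteins, small adaptor proteins of the Bex and Tceal families, and proteins of energy metabolism. The ranking covers only what could be assigned to an allele, and how many reads of each gene could be is unknown. Rpl39, also on the list of ribosomal proteins, did not reach 1 FPKM. Rpl10, a protein of the large ribosomal subunit, had 2387 FPKM on Xa. Rps4x of the small subunit had 1639 FPKM, and Rpl36a of the large subunit had 752 FPKM. These 3 genes made up 34.4% of the Xa FPKM summed over all 269 genes. The 10 highest genes made up 54.9% and the 20 highest 68.5%. All 3 ribosomal genes have near-identical copies on other chromosomes (6 to 10 each), so their levels are uncertain. The median gene had 8.04 FPKM on Xa, and 10% of genes were at or above 91.8 FPKM.

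The Bex and Tceal genes came next. Ngfrap1, a Bex family adaptor linked to neurotrophin receptor signalling, had 509 FPKM on Xa, Wbp5 had 430 FPKM and Bex1 had 422 FPKM. Tceal8 followed at 161 FPKM and Bex2 at 48.2 FPKM. The 5 genes held 11.3% of the summed Xa FPKM, with a median of 422 FPKM against 8.04 FPKM over all genes. The remaining 6 of the 11 genes on this list did not reach 1 FPKM.

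Among genes of mitochondrial respiration and import, 17 were expressed, with a median of 66.8 FPKM on Xa and 11.0% of the summed Xa FPKM. Cox7b, a subunit of respiratory complex IV, had 357 FPKM. The complex I subunits Ndufa1 and Ndufb11 had 232 and 189 FPKM, and Timm8a1, a chaperone of protein import into mitochondria, had 160 FPKM. The 10 genes of carbohydrate, nucleotide and polyamine metabolism were more spread out, from 1.6 to 435 FPKM. At their top were the glycolytic enzyme Pgk1 (435 FPKM), the polyamine-degrading enzyme Sat1 (406 FPKM) and the purine salvage enzyme Hprt (201 FPKM). Pgk1 has 2 near-identical copies elsewhere and Ndufb11 has 1, so both are uncertain.

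The rest of the 20 highest genes had varied functions. Morf4l2, a subunit of histone acetyltransferase complexes, had 303 FPKM on Xa, and Eif1ax, which takes part in start codon selection, had 253 FPKM. The membrane protein Plp2, which like Morf4l2 has 1 near-identical copy elsewhere and is uncertain, had 236 FPKM, the cold-induced RNA-binding protein Rbm3 had 158 FPKM and Bcap31, a protein of the endoplasmic reticulum, had 157 FPKM. Xlr3a, of a rodent family of X-linked lymphocyte-regulated genes, closed the list at 138 FPKM. Near-identical copies on the X itself were not counted, so the level of Xlr3a is also uncertain. Genes of chromatin and transcription lay much lower, with a median of 2.67 FPKM over 27 genes, as did those of the lysosome and endosome (4.11 FPKM over 13 genes) and signalling kinases and receptors (4.62 FPKM over 7 genes). Within the chromatin list, Morf4l2 and the nucleosome-binding protein Hmgn5 (41.3 FPKM) stood above the rest, and the chromatin remodeller Atrx had 7.70 FPKM. Among 9 genes with roles in extraembryonic tissue, the transcriptional coregulator Cited1 had 115 FPKM, the tumour rejection antigen gene Trap1a had 87.7 FPKM, and the proteoglycan Gpc3 had 19.4 FPKM.

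Genes that were high on Xa in WT were also high in the side columns. Of the 20 highest WT genes, 20 were among the 20 highest in XRRb_XaKO, 19 in XRRc_XaKO, 19 in Rad21_degron_DMSO and 15 in Ctcf_degron_DMSO. Xlr3a was the gene that dropped out of XRRc_XaKO and Rad21_degron_DMSO. Hprt, Tceal8, Timm8a1, Rbm3 and Xlr3a dropped out of Ctcf_degron_DMSO.

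**Figure D1:**
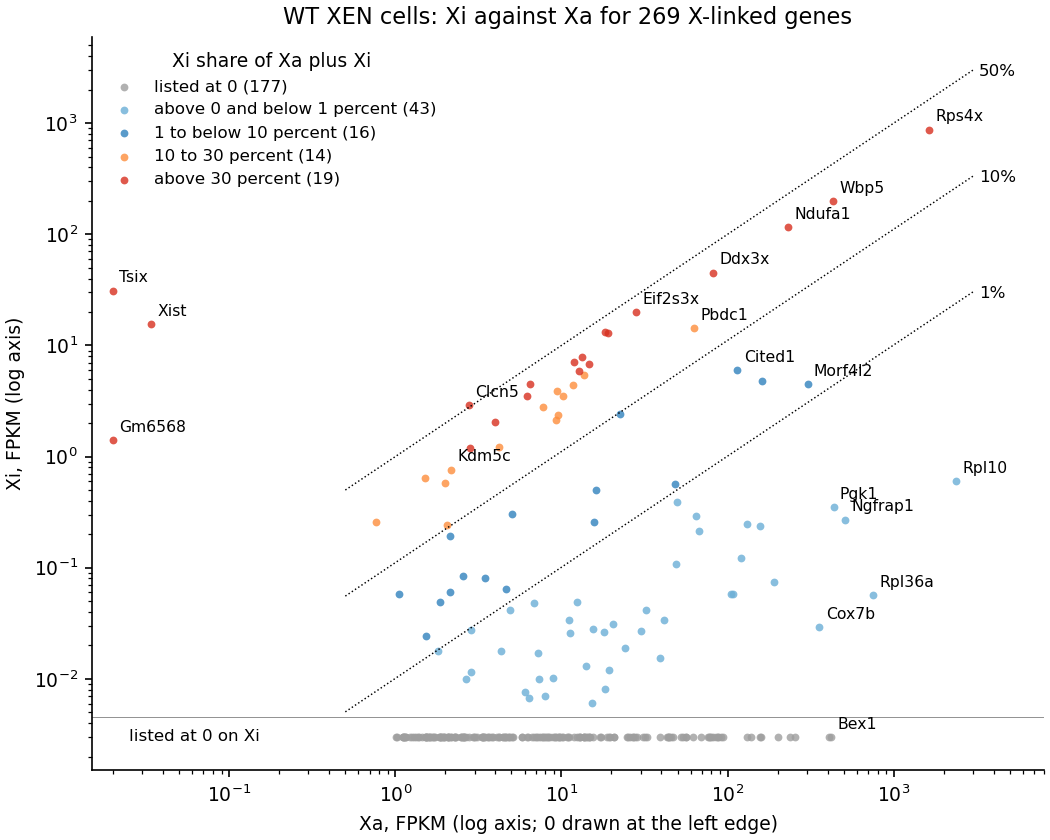
Each point is 1 of the 269 genes, with its Xa FPKM on the horizontal axis and its Xi FPKM on the vertical axis (log axes, merged WT values, listed zeros at the edge, dotted lines of constant Xi share), coloured by the Xi share of Xa plus Xi. The genes with a share above 30% form a band from Clcn5 (2.78 FPKM on Xa, 2.89 on Xi) to Rps4x (1639 and 876 FPKM), with Xist, Tsix and Gm6568 at the left, while most other genes lie far below it or at 0.

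For most of these genes the value on Xi was 0. The Xi share was computed as the Xi FPKM in percent of Xa plus Xi FPKM. It was 0 for 177 of 269 genes (65.8%), above 0 and below 1% for 43, from 1% to below 10% for 16, from 10% to 30% for 14 and above 30% for 19. A share of 10% or more was thus seen for 33 genes (12.3%). Among them, Xist, Tsix, Gm6568 and Zfp182 were below 1 FPKM on Xa and passed the filter only through their Xi values. Nsdhl (9.68%) and Tmem29 (10.6%) lay nearest to either side of the 10% border, and 5530601H04Rik (29.9%) and Yy2 (30.1%) to either side of the 30% border. Summed over all genes, Xi gave 1439 FPKM against 13908 FPKM from Xa, a share of 9.38%. Without Xist and Tsix it was 9.10%, and also without Rps4x it was 4.04%. Rps4x, Wbp5 and Ndufa1 together held 85.6% of the Xi FPKM of all genes other than Xist and Tsix.

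Xist and Tsix stood apart from every coding gene. Xist had 15.5 FPKM on Xi against 0.0339 FPKM on Xa (99.8%). Tsix had 31.2 FPKM on Xi and 0 on Xa. The library method keeps no strand, so reads of Tsix and Xist cannot be told apart. The only other gene listed on Xi alone was Gm6568, a transcribed pseudogene in RefSeq, at 1.40 FPKM. Of the other genes of the X inactivation centre, Chic1 (2.17 FPKM on Xa) and Nap1l2 (1.93 FPKM) were listed at 0 on Xi.

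Apart from these 3, 16 genes had a share above 30%, and all 16 were between 30.1% and 51.0%. Clcn5, an endosomal chloride and proton exchanger, was highest, with 2.78 FPKM on Xa and 2.89 FPKM on Xi (51.0%), and was the one of the 16 with more FPKM on Xi than on Xa. Mmgt1, a subunit of the complex that inserts membrane proteins into the endoplasmic reticulum, had 18.3 FPKM on Xa and 13.2 FPKM on Xi (41.8%). Eif2s3x, the gamma subunit of translation initiation factor eIF2, had 28.1 FPKM on Xa and 20.0 FPKM on Xi (41.5%). For the other 15 genes Xi gave less than Xa, without any of them coming near the 0 at which most genes were listed. The splicing factor Gpkow had 6.47 FPKM on Xa and 4.53 FPKM on Xi (41.2%), and Wdr45, which acts in autophagosome formation, had 19.1 and 13 FPKM (40.5%). Cenpi, a protein of the inner kinetochore, had 13.4 and 7.83 FPKM (36.9%).

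The RNA helicase Ddx3x had 81.6 FPKM on Xa and 45.2 FPKM on Xi (35.6%), and the nuclear RNA-binding protein Nkap had 6.21 and 3.48 FPKM (35.9%). The highest Xi value of all belonged to Rps4x, with 876 FPKM on Xi against 1639 FPKM on Xa (34.8%). It is the only gene at 10% or more for which near-identical copies (6) were found outside the X, and its share is therefore uncertain. Ndufa1 had 117 FPKM on Xi against 232 FPKM on Xa (33.4%). Wbp5 had 199.8 FPKM on Xi against 430 FPKM on Xa (31.7%). No copy of Ndufa1 or Wbp5 was found outside the X, so these are the highest Xi values of coding genes without that limit. Lower shares above 30% were those of Mbtps2, the protease that releases sterol-regulated transcription factors (33.8%), the ribosome biogenesis factor Utp14a (31.7%), the mRNA cleavage factor Cstf2 (31.5%) and Yy2, a retrogene of the transcription factor Yy1 (30.1%). Yy2 overlaps Mbtps2 in the RefSeq annotation, and both are on the minus strand, so reads of this pair may be shared.

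The 14 genes between 10% and 30% had Xi values from 0.241 to 14.3 FPKM. Pbdc1, a known mouse escape gene, had the highest Xi value, 14.3 FPKM against 62.7 FPKM on Xa (18.6%). The transfer RNA methyltransferase Ftsj1 had 5.37 FPKM on Xi against 13.6 FPKM on Xa (28.3%), Upf3b of the nonsense-mediated decay pathway had 4.37 against 11.8 FPKM (27.0%), and the transcription factor Tfe3 had 3.92 against 9.41 FPKM (29.4%). 1810030O07Rik had 3.52 FPKM on Xi (25.6%), and Ercc6l, a DNA translocase of mitotic chromosomes, had 2.80 FPKM (26.6%). Ccdc22, a component of an endosomal sorting complex, had 2.39 FPKM (20.0%), and Las1l, which acts in ribosomal RNA processing, had 2.12 FPKM (18.6%). Kdm5c, a histone H3 lysine demethylase, was low on both alleles, with 0.763 FPKM on Xi and 2.17 FPKM on Xa (26.0%). The related demethylase Kdm6a had a similar Xa level, 2.33 FPKM, and was listed at 0 on Xi. Ccdc120 (22.7%), Armcx5 (22.6%), 5530601H04Rik (29.9%), Zfp182 (25.1%) and Tmem29 (10.6%) complete the class, all with 1.23 FPKM or less on Xi.

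Of 20 escape genes taken from general knowledge, 13 were listed and 9 reached 1 FPKM. This list too was set with earlier results of these data known, so its counts are descriptions. These 9 were Xist, Kdm5c, Kdm6a, Eif2s3x, Ddx3x, Utp14a, Pbdc1, 1810030O07Rik and 5530601H04Rik, and 8 of them had a share of 10% or more, against 12.3% of all genes. Kdm6a was the exception. Xist, among the 8, passed the filter only through its Xi value, so a high share was bound to follow for it. The other 4 listed genes, Bgn, Shroom4 and 2010308F09Rik among them, were below 1 FPKM and listed at 0 on Xi. Mid1, Car5b and Gemin8 were among those not listed with WT, so their shares are unknown.

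The 16 genes with a share from 1% to below 10% included some with high Xa levels. Cited1 had 5.96 FPKM on Xi against 115 FPKM on Xa (4.95%), Tceal8 had 4.81 against 161 FPKM (2.91%), and Morf4l2 had 4.46 against 303 FPKM (1.45%). The sterol synthesis enzyme Nsdhl had 2.42 against 22.5 FPKM (9.68%). In absolute terms, Xi levels of these 4 genes exceeded that of Kdm5c. The other 12 had 0.569 FPKM or less on Xi, with Bex2 (48.2 FPKM on Xa, 1.17%) and Gm5643, which has 4 copies elsewhere (16.1 FPKM on Xa, 3.03%), at their top.

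Among the highest genes on Xa, most shares were below 1%. The same held for all 269 genes, with 177 listed at 0 and 43 above 0 and below 1%. Rpl10 had 0.605 FPKM on Xi (0.025%), Ngfrap1 0.270 FPKM (0.053%), and Pgk1 0.352 FPKM (0.081%). For Rpl36a (0.0076%) and Cox7b (0.0082%) the shares were the lowest above 0 of all genes. The highest Xa levels among genes listed at 0 on Xi were those of Bex1 (422 FPKM), Sat1 (406 FPKM), Eif1ax (253 FPKM), Plp2 (236 FPKM, uncertain because of its copy), Hprt (201 FPKM), Timm8a1 (160 FPKM), Rbm3 (158 FPKM) and Xlr3a (138 FPKM). Ribosomal proteins and the Bex and Tceal genes thus each included 1 gene above 30% and relatives with shares below 3%.

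**Figure D2:**
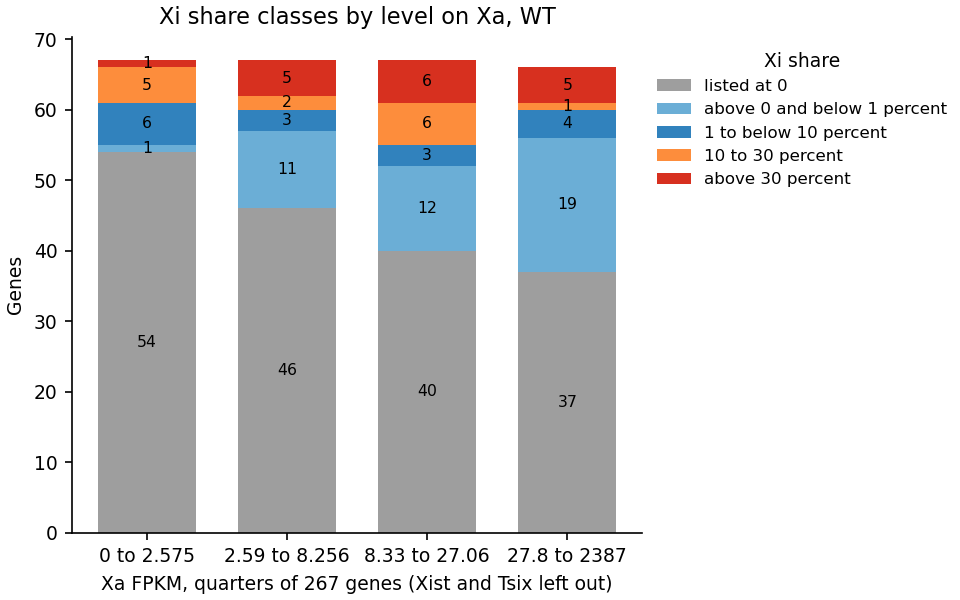
The 267 genes other than Xist and Tsix are split by Xa FPKM into 4 groups of 66 or 67 genes, and the stacked bars give the number of genes in each Xi share class. Genes listed at 0 fell from 80.6% of the lowest group to 56.1% of the highest, while genes at 10% or more made up 8.96%, 10.4%, 17.9% and 9.09%.

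More genes were listed above 0 on Xi at higher Xa levels, while the number with a share of 10% or more showed no steady order. For this, the 267 genes other than Xist and Tsix were ranked by Xa FPKM and split into 4 groups. From the lowest group (0 to 2.58 FPKM) to the highest (27.8 to 2387 FPKM), 54, 46, 40 and 37 genes were listed at 0 on Xi. The genes at 10% or more numbered 6, 7, 12 and 6, and those above 30% numbered 1, 5, 6 and 5. In the lowest group, Gm6568 (0 FPKM on Xa) and Zfp182 (0.769 FPKM) were included only through their Xi values. Gm6568 was the only gene above 30% in that group. Genes above 0 and below 1% numbered 1, 11, 12 and 19. The lowest share above 0 in each group was 0.980%, 0.0879%, 0.0391% and 0.0076%, so the smallest shares listed belonged to genes with high Xa levels.

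As a description across genes, which are not independent and share the same library totals, Spearman's rho between Xi share and Xa FPKM was 0.16 over the 267 genes. It was -0.019 with a filter of 5 FPKM and -0.36 over the 90 genes above 0 on Xi, so no direction is read from it. With the filter of 5 FPKM, genes at 10% or more made up 22.0%, 19.5%, 7.32% and 10% of the 4 groups from low to high, and their order by Xa level thus changed with the filter. The share contains the Xa FPKM in its denominator, so share and Xa level are not independent measures.

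**Figure D3:**
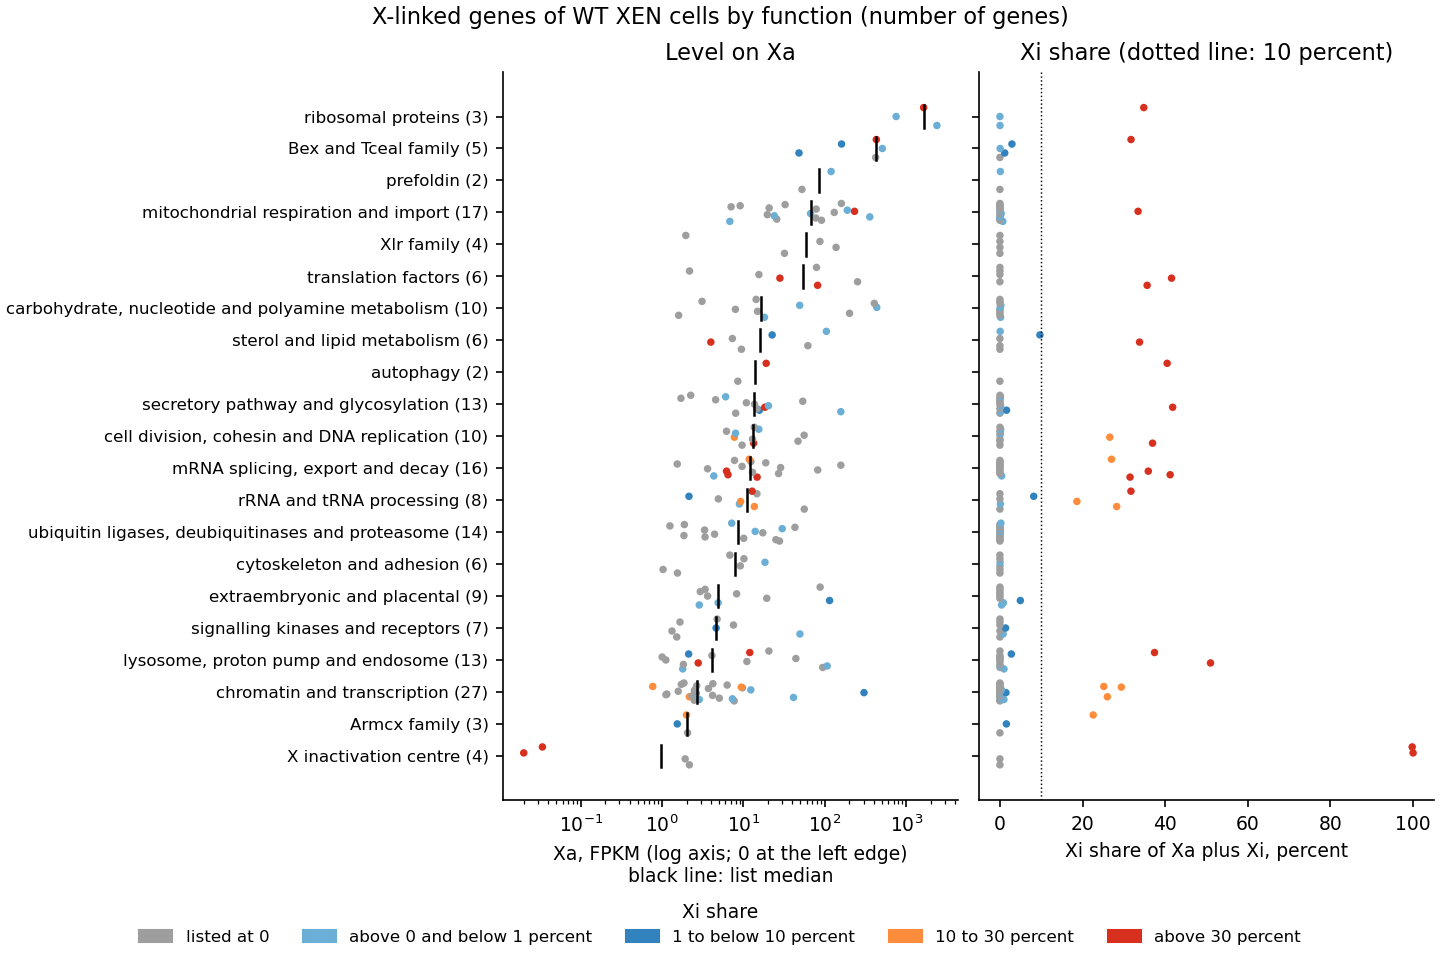
Genes are grouped in rows by function, with the number of genes in brackets. The left side shows the Xa FPKM of each gene (log axis, black line at the median) and the right side the Xi share in percent, with a dotted line at 10%. Points beyond the dotted line include 3 of 8 genes of rRNA and tRNA processing and 4 of 16 of mRNA splicing, export and decay, and none of 14 in the ubiquitin row.

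The number of genes with a share of 10% or more is given by function, beside 12.3% of all genes. The lists were chosen with earlier results of these data known, so these counts are descriptions. Most lists are small, so that a gene or a few would bring them to the background, and no function is set apart by its count. Of 8 genes of ribosomal and transfer RNA processing, 3 were at 10% or more (Utp14a, Ftsj1 and Las1l), and Trmt2b, a transfer RNA methyltransferase, was at 8.18%. Of 16 genes of mRNA splicing, export and decay, 4 were (Gpkow, Nkap, Cstf2 and Upf3b), while 11 were listed at 0, among them Rbm3, the paraspeckle protein Nono (81.9 FPKM on Xa, uncertain because of 1 near-identical copy) and the splicing regulator Pqbp1 (28.7 FPKM). Of 6 translation factors, Eif2s3x and Ddx3x were above 30% and the other 4 were listed at 0, namely Eif1ax, the reinitiation factor Mcts1 (79.1 FPKM on Xa), the RNA-binding protein Fmr1 (15.5 FPKM) and the release factor Gspt2 (2.18 FPKM). In each of these lists the genes were either well above 10% or, except Trmt2b, below 1%.

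In cell division, cohesin and DNA replication, 2 of 10 genes were at 10% or more (Cenpi and Ercc6l). The cohesin subunits Smc1a (0.183%) and Stag2 (0) were not. In the lysosome and endosome list, 2 of 13 were, Clcn5 among them, and the proton pump accessory proteins Atp6ap1 (94.4 FPKM on Xa, share 0) and Atp6ap2 (107 FPKM, 0.054%) were not. In the secretory pathway Mmgt1 was the only 1 of 13, in sterol and lipid metabolism Mbtps2 the only 1 of 6, and in autophagy Wdr45 1 of 2. The chromatin and transcription list, the largest, had 3 of 27 (Kdm5c, Tfe3 and Zfp182), or 11.1%, and 18 genes listed at 0. Of these 3, Zfp182 was included only through its Xi value.

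Several functions had few or no genes at 10% or more. Of 17 genes of mitochondrial respiration and import, Ndufa1 was the only one at 10% or more, and no other reached 1%. None of 14 ubiquitin ligase, deubiquitinase and proteasome genes reached 1%, and 11 were listed at 0, with Ube2a (43.0 FPKM on Xa) the highest of them. None of the 10 genes of carbohydrate, nucleotide and polyamine metabolism reached 1% either, with Prps1, the enzyme that makes the ribose precursor of nucleotides, at 0.220%. None of 6 cytoskeleton and adhesion genes, 7 signalling genes or 9 extraembryonic genes was at 10% or more, and Cited1 was the highest of these 22. All 4 Xlr genes were listed at 0. They belong to a multigene family whose reads may be split between members. These lists are small, so counts of 0 in 6 to 14 genes lie within 1 or 2 genes of the background of 12.3%. The 84 genes in no list had 8 at 10% or more (9.52%).

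**Figure D4:**
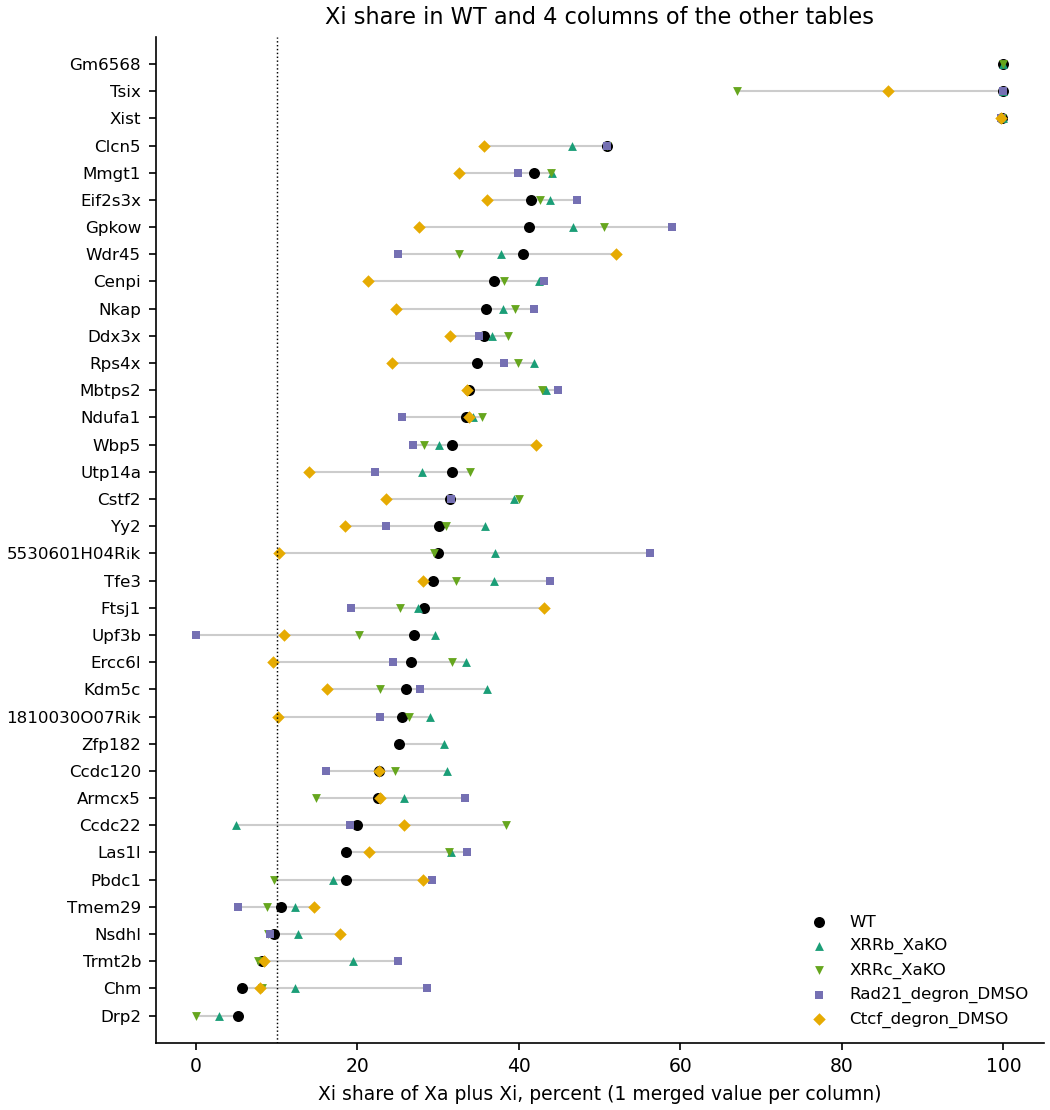
For genes with a WT share of 5% or more, except a gene not reported here, the Xi share (horizontal axis, dotted line at 10%) in percent is shown in WT and in the 4 side columns, each a merged value of its own group. Among the genes drawn, those above 30% in WT are at 10% or more in every column that holds them at 1 FPKM. That line lies well below the border of their class. Of genes below 30% in WT, Upf3b ranges from 0 to 29.6% and Ccdc22 from 4.96% to 38.4%.

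The shares in WT were set beside those of XRRb_XaKO, XRRc_XaKO and the DMSO columns of the Rad21 and Ctcf lines. These tables were made separately, so shares and not levels are given across them. Of the 19 genes above 30% in WT, 18 reached 1 FPKM in all 4 other columns, and all 18 were at 10% or more in each. That line lies well below the border of this class, and several of its genes fell below 30% in at least 1 column. Xist and Tsix, among the 18, passed the filter in WT only through their Xi values. Ddx3x varied from 31.5% to 38.7% over the 5 columns. Eif2s3x ranged from 36.0% to 47.3%, Wbp5 from 26.9% to 42.1%, Ndufa1 from 25.5% to 35.4% and Gpkow from 27.6% to 59.0%. Utp14a had the lowest single value of the class, 14% in Ctcf_degron_DMSO.

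For genes between 10% and 30% in WT, the 10% line is the class border itself, so their counts are not set against those above 30%. Of 13 genes of this class that could be compared, 8 were at 10% or more in all 4 other columns and 5 in some. Upf3b was listed at 0 on Xi in Rad21_degron_DMSO and at 29.6% in XRRb_XaKO. Ccdc22 went from 4.96% in XRRb_XaKO to 38.4% in XRRc_XaKO. Ercc6l (9.53%), Pbdc1 (9.62%) and Tmem29 (5.26%) each had a lowest value below 10%. Kdm5c was at 10% or more throughout, from 16.3% to 36.1%. The median spread between a gene's lowest and highest share was 19.6 percentage points in this class and 15.9 in the class above 30%, which gives a measure of how far single merged columns differ. Some shares were whole percents, such as 20% for Ccdc22 and 26% for Kdm5c in WT and 25% for Wdr45 in Rad21_degron_DMSO. Such values can arise from few reads, which was not tested. Wide ranges are therefore not read as traits of the genes.

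Of 14 genes at 1% to below 10% in WT, 6 passed 10% in at least 1 other column. Nsdhl was between 8.89% and 17.9%, Cited1 between 4.63% and 11.2%, and Tceal8 between 0.035% and 17.7%. Chm, which escorts Rab proteins for lipid attachment, was between 5.71% and 28.6%. None of the 43 genes above 0 and below 1% reached 10% in any other column. Of 139 genes listed at 0 in WT, 138 stayed below 10% in all 4 and 98 were listed at 0 in all 4. Praf2, a membrane protein of the secretory pathway, was the exception, at 26.6% in Ctcf_degron_DMSO. Over the 225 genes shared by the 5 columns, other than Xist and Tsix, 29 were at 10% or more in WT and 32, 27, 31 and 31 in the other columns, in the order named above. Of all 177 genes with a WT value of 0 on Xi, 49 were at 0 on Xi in all 11 other columns of the study, and 128 were above 0 in at least 1, which includes the mutant and dTAG groups.

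**Figure D5:**
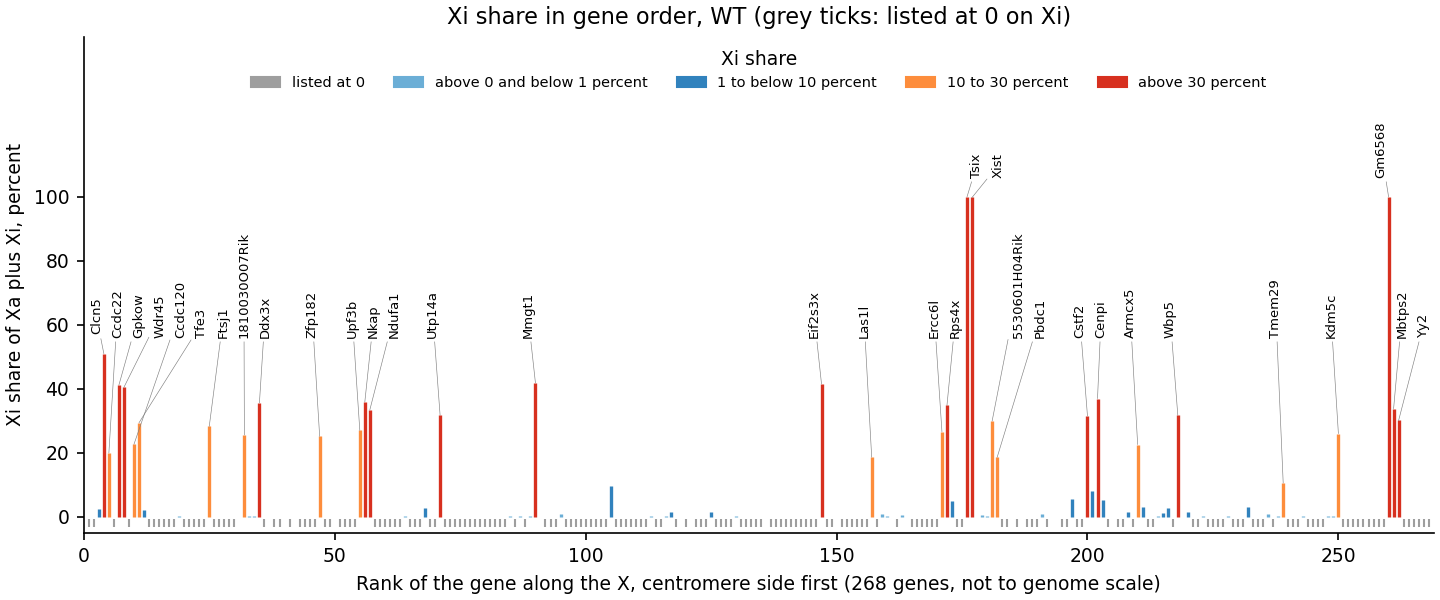
Genes are placed along the X by their order (1 to 268, in the mouse GRCm38.p6 annotation), with the Xi share in percent on the vertical axis and the class in colour. The last place is that of Pdha1, and the X beyond it is not covered. Genes at 10% or more occur on both sides of Xist (place 177), and 6 of the 8 genes from Clcn5 to Tfe3 are among them. A gene not reported here is left out of the drawing.

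Gene order along the chromosome was taken from RefSeq genes of GRCm38.p6. The authors' build was mm9, so only order is used, and 268 of 269 genes could be placed. The most distal of them was Pdha1, so the counts do not cover the X beyond it. The 33 genes at 10% or more lay in 22 separate runs, of which 13 were 1 gene and 9 were neighbours in the order of expressed genes, with 20 genes among them. Of 267 pairs of adjacent genes, 11 had both genes at 10% or more. Of the 66 places directly beside the 33 genes, 28 held a gene listed at 0 and 22 another gene at 10% or more, while 65.8% and 12.3% of all genes were in these classes. A gene beside 2 of the 33 is counted at both places. The 11 pairs include Tsix with Xist and Mbtps2 with Yy2, which overlap and may share reads. They also include Gm6568 with Mbtps2. Gm6568, like Tsix and Xist, was included only through its Xi value. The 22 places come from these same pairs, and no count was made without them. Xist itself aside, 21 of the 176 genes proximal to it, Tsix among them, and 11 of the 91 distal to it were at 10% or more.

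Near the proximal end, 6 of the 8 genes from Clcn5 to Tfe3 were at 10% or more, a stretch whose ends were chosen after the values were seen. They were Clcn5, Ccdc22, Gpkow, Wdr45, Ccdc120 and Tfe3, and the 2 between them, Plp2 and Praf2, were listed at 0 on Xi. Upf3b, Nkap and Ndufa1 were neighbours, between Sept6 and Zbtb33, which were listed at 0. Ercc6l lay next to Rps4x, and Pbdc1 next to 5530601H04Rik. Mbtps2 and Yy2, which overlap, lay next to Gm6568. In the annotation 14 of the 33 genes overlap another listed gene, against 56 of all 269. Some of these overlaps are only with genes listed at 0 on both alleles, as for Clcn5 and Mmgt1. Others are with an expressed gene, among them Armcx5 with Gprasp1 and Tmem29 with Apex2, so that reads of these pairs may be shared.

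Several genes with high shares had neighbours at or near 0 on both sides. Ddx3x lay between the deubiquitinase Usp9x (0.239%) and the monoamine oxidase Maoa (0). Kdm5c lay between Smc1a (0.183%) and Tspyl2 (0). Eif2s3x lay between the zinc finger factor Zfx and the ubiquitin ligase adaptor Klhl15, both listed at 0, and Zfx has 1 near-identical copy elsewhere. Wbp5 lay between Bex1 (0) and Ngfrap1 (0.053%), with 430, 422 and 509 FPKM on Xa. These 3 adjacent genes of the Bex and Tceal families thus had nearly the same Xa level and Xi levels of 199.8, 0 and 0.270 FPKM.

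The promoters of 2 such neighbouring pairs are shown because each pair sets a gene with a share above 30% beside one listed at 0. Each is the 250 bases before the start of the gene in RefSeq, in GRCm38.p6, 5′ to 3′ on the gene's own strand, with CG dinucleotides, the target of DNA methylation, in capitals. Wbp5 is at chrX:136244830-136245079 on the plus strand, Bex1 at chrX:136215514-136215763 on the minus strand, Eif2s3x at chrX:94212652-94212901 on the minus strand and Klhl15 at chrX:94234680-94234929 on the plus strand.
Wbp5: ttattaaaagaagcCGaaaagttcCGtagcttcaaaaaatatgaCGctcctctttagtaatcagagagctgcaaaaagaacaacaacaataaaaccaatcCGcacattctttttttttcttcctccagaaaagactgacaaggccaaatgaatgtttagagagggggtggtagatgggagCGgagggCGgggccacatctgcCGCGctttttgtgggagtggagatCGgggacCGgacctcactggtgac
Bex1: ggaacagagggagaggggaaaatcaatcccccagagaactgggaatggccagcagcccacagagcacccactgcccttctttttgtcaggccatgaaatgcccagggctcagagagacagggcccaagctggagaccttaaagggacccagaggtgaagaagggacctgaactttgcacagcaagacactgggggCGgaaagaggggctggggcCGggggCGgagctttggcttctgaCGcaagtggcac
Eif2s3x: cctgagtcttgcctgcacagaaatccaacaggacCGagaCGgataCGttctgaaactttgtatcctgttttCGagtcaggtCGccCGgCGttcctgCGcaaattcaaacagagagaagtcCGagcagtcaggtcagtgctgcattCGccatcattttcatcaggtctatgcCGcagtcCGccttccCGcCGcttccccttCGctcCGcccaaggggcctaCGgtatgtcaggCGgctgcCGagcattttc
Klhl15: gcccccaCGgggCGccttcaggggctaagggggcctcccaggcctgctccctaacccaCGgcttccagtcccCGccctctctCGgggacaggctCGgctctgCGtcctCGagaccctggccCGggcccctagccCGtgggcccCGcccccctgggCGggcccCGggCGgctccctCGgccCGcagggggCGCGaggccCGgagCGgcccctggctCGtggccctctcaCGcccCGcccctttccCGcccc
Wbp5 (Xi share 31.7%) has 10 CG dinucleotides and Bex1 (0) has 4, whereas Eif2s3x (41.5%) has 19 and Klhl15 (0) has 24. The order of CG number and of share was therefore opposite in the 2 pairs.

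Over all expressed genes, the median CG number differed little between genes at 10% or more and those below. By class, from listed at 0 to above 30%, the median was 13, 13, 10, 11.5 and 15, so it was highest above 30%. A promoter was found for 235 genes other than Tsix and Xist, 26 of them at 10% or more. Only the first listed promoter of a gene was used, here and in the wider sets below. Several were listed for 46 of these genes, 3 of them at 10% or more. Armcx5 and Gprasp1 have the same promoter sequence, which is counted on both sides of 10%. The median of the 26 genes was 12.5 CG dinucleotides (range 3 to 25), against 13 (range 0 to 48) for the 209 genes below 10%. At least 10 CG dinucleotides were present in 73.1% of the former and 62.7% of the latter, compared with 30.9% of all 1046 promoters of the X and 38.2% of all 27025 promoters. The median GC content was 52.4% against 57.2%, and the CG number relative to that given by base composition was 0.83 against 0.64. The core motif GCCAT of the factor YY1, searched on both strands with no other motif, was present in 13 of 26 (50.0%) and 68 of 209 (32.5%), next to 35% of X promoters and 32.9% of all promoters. A match describes these letters only.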

How the data were processed

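RNA from XEN cells was made into Smart-seq2 libraries by poly(A) capture, per the labels' protocols, and this method does not mark strand. The submitters' processing notes name the build mm9 and the tools HISAT2 2.2.0, Trim Galore 0.6.4 and StringTie 2.1.1. Sources used here do not give the step that split reads by allele. FPKM values were deposited as 4 tables of X-linked genes, in 24 columns that are merged over samples, 1 per group and allele, per the file headers. WT stands for 3 samples. The test planned across samples and the removal of single replicates could not be made.

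Genes with Xa plus Xi of 1 FPKM or more were kept. Just inside were Mtm1, Zfp182 and Diap2 (1.00, 1.03 and 1.03 FPKM; shares 0, 25.1% and 0), and just outside Wdr44, Phka1 and Hdx (0.987, 0.987 and 0.969 FPKM, all 0 on Xi). Columns in other tables were matched by name, and those of the Ctcf table by the table's title. For 268 genes, near-identical copies on other chromosomes were sought with minimap2 2.31 between GENCODE M21 transcripts (95% identity over 50% of the length). Such a copy was found for 21 genes. Copies on the X itself were not counted. Names, order and promoters came from RefSeq tables of GRCm38.p6. Genes and gene lists were chosen with earlier results of these data known. Named genes were the 20 highest on Xa, all above 30%, the 12 highest on Xi at 10% to 30%, the 8 highest at 1% to below 10%, the 8 highest on Xa listed at 0, 6 known X-linked genes and up to 4 of each list. Others were chosen after their values were seen, and a few genes that the rule takes are not reported here. Share classes and rank correlations were tested on simulated data. Alternatives were no filter, a filter of 5 FPKM, 0.1 or 0.5 FPKM added to both alleles, share rules of 5% and 20%, and removal of genes with copies. Tools were pandas 2.3.3, numpy 2.4.6 and matplotlib 3.10.9 under Python 3.11.15.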

Additional observations from a re-analysis of the deposited data

How the results depend on the processing

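No paired analysis was possible because each column merges its group's samples and carries no replicate number. The count of 33 genes at 10% or more was 47 without a filter, 26 with a filter of 5 FPKM, 32 without genes that have copies, and 37 and 30 with share rules of 5% and 20%. With 0.1 FPKM added to both alleles it was 36, and with 0.5 FPKM added it was 118, because low genes listed at 0 on Xi then gain a share by construction. Without a filter, 283 genes were listed at 0 and 30 were above 30%. With a filter of 5 FPKM, 94 were listed at 0, 8 were at 1% to below 10% and 9 at 10% to 30%, since fewer genes were kept. The summed share was 4.04% without Rps4x. The rho between share and Xa FPKM was -0.019 with a filter of 5 FPKM and -0.36 over genes above 0 on Xi, the latter chosen after seeing the data, so its sign is not stable. The percent of genes at 10% or more in the lowest group by Xa level was 15.5% without a filter and 22.0% with 5 FPKM, and with 5 FPKM it was 19.5% in the second and 7.32% in the third group. With 0.5 FPKM added, the share of Tmem29 was 22.6% and that of Gm6568 was 79.2%. Depth is unknown, so how low an Xi level could have been seen cannot be given.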

Other observations

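Below 1 FPKM, 120 genes were above 0 on either allele and 564 were listed at 0 on both. Of the 120, 14 were above 0 on Xi, and all 14 had a share of 10% or more, 7 of them above 90%. High among them were BC065397 (0.338 FPKM on Xa, 0.3 on Xi) and Ppp1r3f (0.428 and 0.129 FPKM). These are single merged values at levels where a gene is easily missed on either allele.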
